A study of Mus musculus with 70 samples.

Results

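The cell cycle genes described here are 37 listed mouse genes of S phase and mitosis, chosen by name: regulators of the entry into S phase, the origin licensing and helicase proteins, replication fork and nucleotide supply enzymes, mitotic cyclins and kinases, and spindle, kinetochore and chromosome proteins. Of the 37, 34 were matched to a row among the 50789 rows of the gene count table. Mcm3, Mcm6 and Cenpf were not analysed here. RNA with a poly(A) tail was sequenced from 70 mouse tissue samples of 3 genotypes, WT, Cic-S-KO and Cic-L-KO. S and L are the short and the long isoform of Capicua, a DNA-binding repressor of transcription that ERK signalling relieves. Lung was taken at postnatal day 6, with 8 samples of each genotype. Cortex and cerebellum were taken at 12 weeks, each with 8 WT, 7 Cic-S-KO and 8 Cic-L-KO samples. The WT mice are littermate controls of both knockout lines, put together as 1 control group. The labels give neither the alleles, the sex nor the litters, nor whether cortex and cerebellum came from the same animals, and the labels put lung in batch 1 and both brain tissues in batch 2 without saying what a batch is. Each tissue was therefore compared across genotypes on its own.

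As background, the genes fall into successive waves. E2F factors, held back by the retinoblastoma family until growth signals release them, switch on cyclin E, the MCM helicase that is loaded at replication origins, and the enzymes that make and polymerise deoxynucleotides. Later, B-Myb, FoxM1 and the MuvB core switch on cyclins A and B, the mitotic kinases and the motors of the spindle, whose promoters often hold a cell cycle genes homology region (CHR) and CCAAT boxes. The postnatal lung still divides widely while alveoli form, whereas most cells of the adult cortex and cerebellum have left the cycle.

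Promoter stretches are shown for 3 mitotic genes that were lower in Cic-L-KO lung and for 1 helicase gene that was lower in Cic-L-KO cerebellum, because the CHR letters were found in all 3 and the E2F letters in the fourth. Each is the 200 bases before the RefSeq start (GRCm38.p6, reference sequence), written 5′ to 3′ along the gene, with capitals marking matches on either strand to the CHR (TTTGAA), the CCAAT box (CCAAT) or the E2F motif (TTTGGCGC, TTTCCCGC, TTTCGCGC or TTTGCCGC).
Kif11, chr19:37376182-37376381, + strand: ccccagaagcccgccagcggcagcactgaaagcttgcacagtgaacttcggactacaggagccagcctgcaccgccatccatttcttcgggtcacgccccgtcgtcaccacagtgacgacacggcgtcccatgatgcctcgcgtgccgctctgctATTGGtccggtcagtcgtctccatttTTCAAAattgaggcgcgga
Ccnb2, chr9:70421555-70421754, - strand: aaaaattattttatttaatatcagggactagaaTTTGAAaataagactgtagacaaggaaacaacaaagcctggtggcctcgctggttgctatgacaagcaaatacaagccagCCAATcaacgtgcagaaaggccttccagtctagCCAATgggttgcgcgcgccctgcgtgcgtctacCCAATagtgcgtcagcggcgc
Top2a, chr11:99024190-99024389, - strand: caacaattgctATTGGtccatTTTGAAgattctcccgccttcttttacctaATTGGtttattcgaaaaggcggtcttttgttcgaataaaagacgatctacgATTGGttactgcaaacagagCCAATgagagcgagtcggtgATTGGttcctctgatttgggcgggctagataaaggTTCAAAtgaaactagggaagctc
Mcm5, chr8:75109309-75109508, + strand: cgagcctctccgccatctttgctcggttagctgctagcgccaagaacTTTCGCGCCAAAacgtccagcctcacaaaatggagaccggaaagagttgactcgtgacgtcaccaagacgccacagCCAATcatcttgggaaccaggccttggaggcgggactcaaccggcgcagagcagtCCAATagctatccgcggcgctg

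A RefSeq promoter window of 300 bases (250 before to 50 after the start) was matched for 27 of the 34 genes, with 28 windows. The CHR letters were found in 39.3% of these windows and in 17.9% of all 32851 windows of the table. Among windows of the mitotic cyclins, kinases, spindle and chromosome genes, 9 of 14 (64.3%) held them. Among windows of the genes of S phase and its entry, 2 of 14 (14.3%) did. CCAAT was found in 75% of the windows of the listed genes against 37.4% of all windows. The E2F letters were found in 17.9% against 2.26%, in Cdc6, Cdk1, Cdt1, Mcm5 and Mcm7. The Capicua octamers TGAATGAA and TGAATGGA were in 0 of the 28 windows and in 2.47% of all windows. In the Mcm5 stretch 2 E2F matches overlap each other, and no other matches in the 4 stretches overlap. These are letter matches, with no test.

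Libraries held 17798655 to 35523037 counts. Levels are CPM, counts scaled to a common library size with edgeR's TMM factors within a tissue. At gene level, where counts do not separate the isoforms, Cic lay at 128 to 157 CPM in WT lung, 149 to 183 in Cic-S-KO lung and 131 to 148 in Cic-L-KO lung, so gene counts do not show the loss of an isoform. Cic was higher than in WT in Cic-S-KO lung (log2 fold change 0.31, adjusted p = 6.4e-05; edgeR), in Cic-S-KO cortex (0.63, adjusted p = 1.4e-12), in Cic-L-KO cortex (0.88, adjusted p = 9.5e-18; 150.3 to 173 CPM in WT and 269 to 318 in Cic-L-KO) and in Cic-L-KO cerebellum (0.15, adjusted p = 0.025). The labelled tissues carried their markers. In WT, 5 alveolar type 2 genes summed to 14564 to 18062 CPM in lung, and 5 neuron genes to 6856 to 7537 CPM in cortex, 4580.5 to 5287 CPM in cerebellum and 2.60 to 4.26 CPM in lung. Cic-S-KO lung replicate 5 stood apart with 27.2 CPM of neuron genes. No pair of libraries within a group was identical.

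In WT mice, 32 of the 34 genes were higher in every lung library than in every brain library, on CPM scaled over all 70 samples. The share of all genes that separate in this way was not computed, so this count is not shown to be particular to these genes. The median ratio of the WT means was 23.5 for lung over cortex and 23.6 for lung over cerebellum. Tissue, age and batch differ together here, so these are descriptions with no test. The ratio differed by role in its median, but the ranges of the roles overlapped. Over cerebellum its median was 5.55 (3.38 to 29.1) for the licensing and helicase genes and 2.93 (2.06 to 44.7) for fork and nucleotide enzymes. It was 79.6 (17.2 to 262) for mitotic cyclins and kinases and 87.3 (10.6 to 395) for spindle and chromosome genes. Over cortex the medians were 11.6, 5.57, 67.9 and 32.4 in that order. Mki67, the nuclear antigen of dividing cells, had the widest ratio over cerebellum, at 307 CPM in WT lung, 3.25 CPM in cortex and 0.779 CPM in cerebellum. The cyclin E genes, the 2 exceptions, were at the other end. Ccne1, the cyclin that with Cdk2 starts S phase, had a mean of 11.3 CPM in lung, 18.01 CPM in cortex and 10.99 CPM in cerebellum. Within the brain, 8 genes were higher in every WT cerebellum than in every WT cortex, 5 of them licensing and helicase genes (Mcm7 had means of 23.96 and 15.2 CPM). The reverse held for 7, including E2f1 (20.2 CPM in cortex and 3.70 CPM in cerebellum). The shares of all genes that separate between cortex and cerebellum were not computed either, so neither count can be set against a background.

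**Figure D1:**
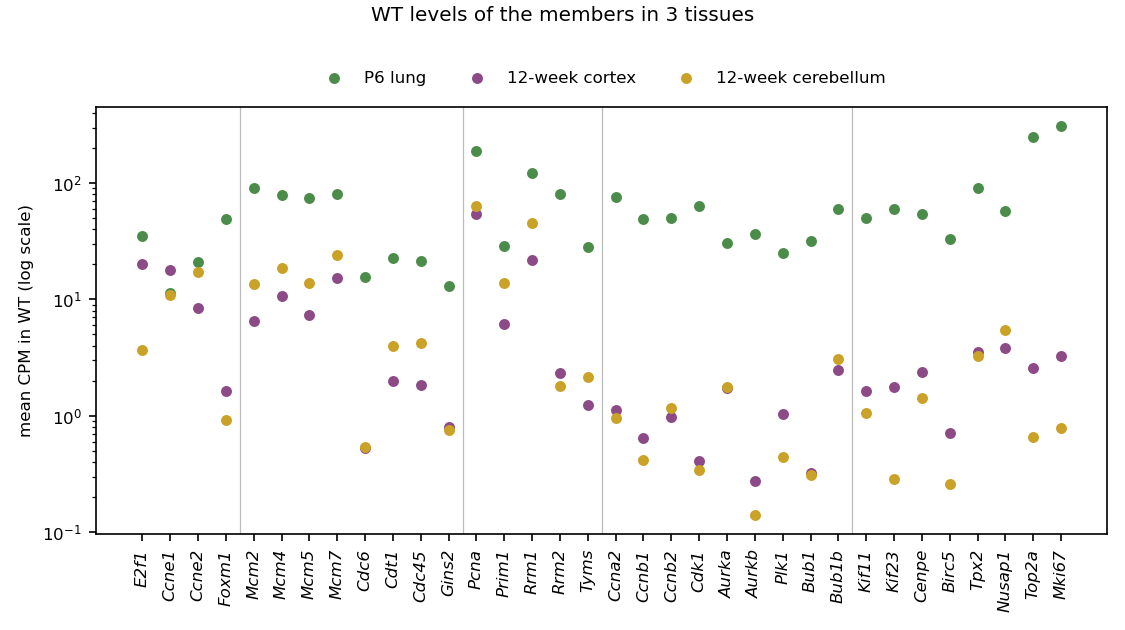
Mean CPM of the 34 genes in WT mice (log axis, scaled over all samples; 8 libraries a tissue), one column a gene, with vertical lines between role groups. Mitotic and spindle genes on the right fall to at most 5.47 CPM (Nusap1 in cerebellum) in brain, while MCM genes, Pcna and Rrm1 stay between 6.53 (Mcm2 in cortex) and 63.8 CPM (Pcna in cerebellum) there. Some other licensing and nucleotide genes are also low in brain. Examples are Cdc6 (0.528 CPM in cortex and 0.541 CPM in cerebellum) and Rrm2 (2.35 and 1.81 CPM).

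Per kilobase of exon, the WT lung means also differed widely between genes. Pcna, the sliding clamp of the replication fork, stood at 86.2 CPM per kilobase and Mki67 at 33.8. Top2a, the topoisomerase that untangles sister chromatids, stood at 30.7, Mcm2 at 14.5 and E2f1 at 12.3. Bub1b, a kinase-like subunit of the spindle checkpoint, stood at 15.5 and Ccne1 at 4.71.

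Mitotic genes were lower in the growing lung of Cic-L-KO mice. In Cic-L-KO against WT lung, 15 of 34 genes were lower and 0 higher at an adjusted p under 0.05 (edgeR's quasi-likelihood test with Benjamini-Hochberg adjustment over the 16695 genes tested). Over all genes tested, 2.28% were lower and 2.62% higher. All 34 had a negative log2 fold change, with a median of -0.27 against -0.00093 over all genes tested. By role, 6 of 8 spindle, kinetochore and chromosome genes fell, 5 of 9 mitotic cyclins and kinases, 2 of 5 fork and nucleotide enzymes, 2 of 4 regulators of S phase entry and 0 of 8 licensing and helicase genes (2 at an unadjusted p under 0.05 and 1 by DESeq2). Foxm1, an activator of mitotic genes, is listed here with the entry regulators and is 1 of those 2. At an unadjusted p under 0.05 (edgeR), 8 of 8 spindle genes, 9 of 9 mitotic cyclins and kinases, 5 of 5 fork enzymes and 3 of 4 entry regulators were lower. In whole-tissue RNA, fewer dividing cells and less of each transcript per cell cannot be told apart. Without single libraries the count ranged from 10 (without WT replicate 5) to 19 (without Cic-L-KO replicate 2), and with GC content adjusted it was 9. DESeq2 called 20 of the 34.

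**Figure D2:**
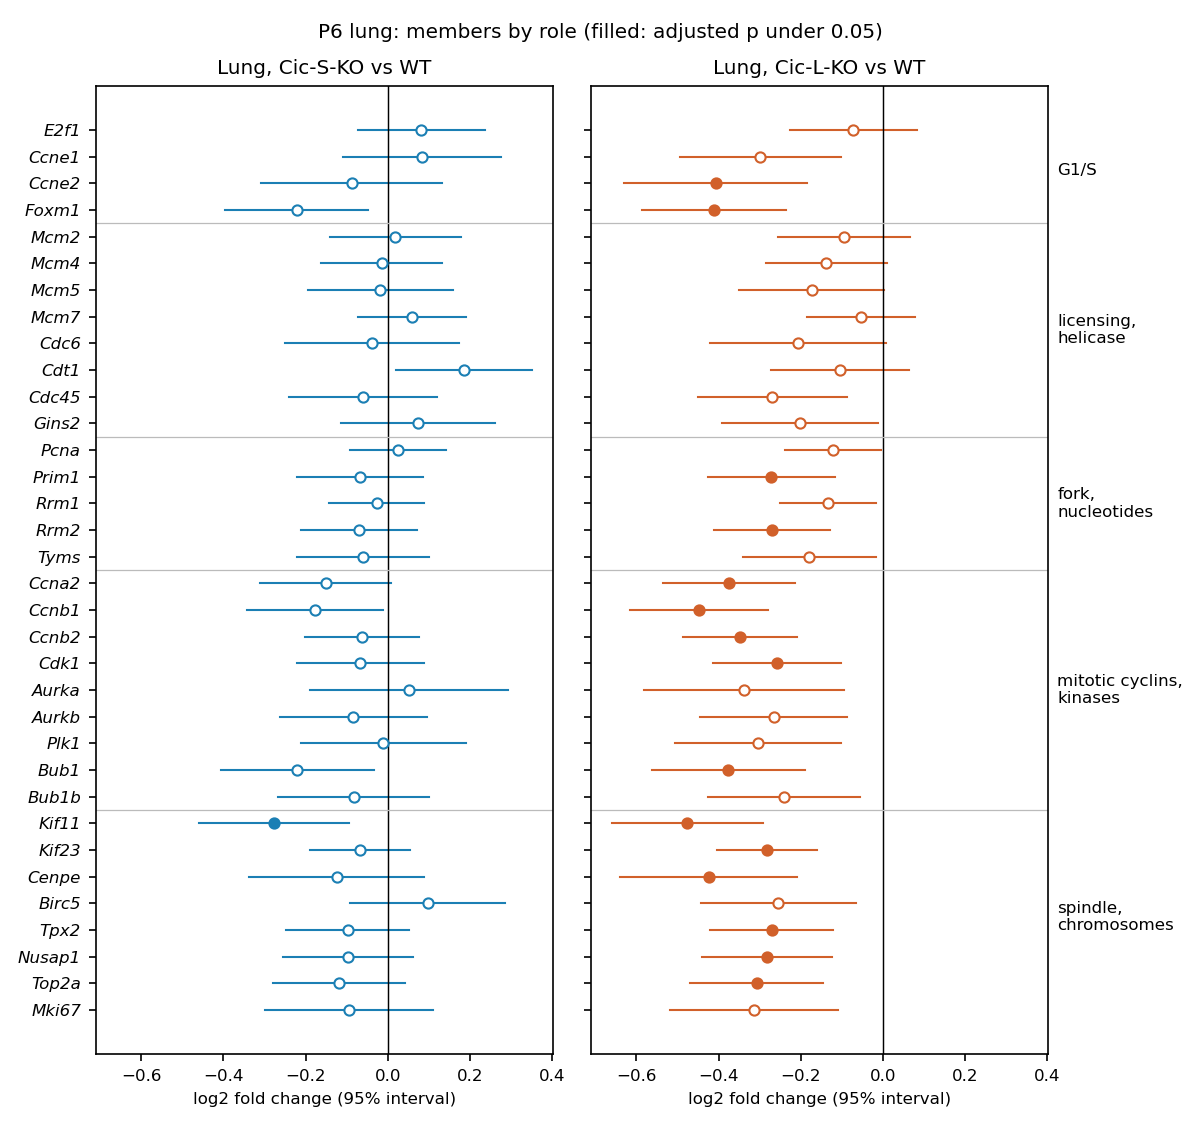
Log2 fold change against WT in P6 lung with its 95% interval for each of the 34 genes, by role, in Cic-S-KO (left) and Cic-L-KO (right); filled points passed the test. All 34 points lie below 0 in Cic-L-KO and 25 of 34 in Cic-S-KO.

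Among the mitotic cyclins, which activate Cdk1, Ccnb1 (cyclin B1) ranged over 45.2 to 66.1 CPM (median 51.0) in WT and 37.02 to 48.0 CPM (median 38.6) in Cic-L-KO lung. In all, 7 of 8 Cic-L-KO libraries lay below every WT library, and the change passed the test (log2 fold change -0.45 with an SE of 0.08, adjusted p = 0.0015; edgeR). Ccnb2 ranged over 49.8 to 66.8 CPM (median 53.6) in WT and 39.3 to 54.7 CPM (median 42.2) in Cic-L-KO (log2 fold change -0.35 with an SE of 0.07, adjusted p = 0.0029). Ccna2, the cyclin of S phase and early mitosis, ranged over 71.0 to 100.1 CPM (median 80.6) and 53.6 to 74.1 CPM (median 63.9) (log2 fold change -0.37 with an SE of 0.08, adjusted p = 0.0051). The groups of Ccnb2 and Ccna2 overlapped in a few libraries. Cdk1 itself, the kinase that drives entry into mitosis, ranged over 62.3 to 81.7 CPM (median 68.1) in WT and 49.0 to 72.9 CPM (median 56.9) in Cic-L-KO. Its change was small and close to the threshold (log2 fold change -0.26 with an SE of 0.08, adjusted p = 0.046), and 5 of 8 other settings and 10 of 16 single libraries left out ended the call. Bub1, a spindle checkpoint kinase, ranged over 30.7 to 45.5 CPM (median 35.2) and 23.4 to 35.1 CPM (median 25.9) (log2 fold change -0.38 with an SE of 0.09, adjusted p = 0.016), and with GC content adjusted its adjusted p was 0.062. Processed pseudogenes are annotated for Ccnb1 and Ccnb2, and also for Pcna and Tyms, and reads could be shared between these genes and their pseudogenes.

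Kif11, the motor that pushes spindle poles apart, was the 1 gene whose Cic-L-KO and WT lung libraries did not overlap, against 0.27% of all genes. It ranged over 47.5 to 64.0 CPM (median 55.2) in WT and 33.8 to 44.4 CPM (median 39.1) in Cic-L-KO lung (log2 fold change -0.48 with an SE of 0.09, adjusted p = 0.0021; edgeR). Kif23, a motor of the central spindle in cell division, ranged over 61.7 to 69.9 CPM (median 66.8) and 48.9 to 63.7 CPM (median 52.5) (log2 fold change -0.28 with an SE of 0.06, adjusted p = 0.0054). Cenpe, a kinetochore motor, ranged over 47.9 to 78.5 CPM (median 53.8) and 40.7 to 50.1 CPM (median 44.0) (log2 fold change -0.42 with an SE of 0.10, adjusted p = 0.018). For Kif23 and for Cenpe, 7 of 8 Cic-L-KO libraries lay below every WT library. Top2a ranged over 244 to 339 CPM (median 269) and 197 to 274 CPM (median 218) (log2 fold change -0.31 with an SE of 0.08, adjusted p = 0.022), and with GC content adjusted its adjusted p was 0.055. The spindle assembly factors Tpx2 and Nusap1 also fell (log2 fold change -0.27 and -0.28, adjusted p = 0.029 and 0.030), Nusap1 not with GC content adjusted. The Tpx2 call was lost without WT replicate 5, 6 or 7 or Cic-L-KO replicate 1, 5, 6 or 8, and the Nusap1 call without WT replicate 5, 6 or 7 or Cic-L-KO replicate 3, 6, 7 or 8. Mki67 missed the threshold: it ranged over 272 to 417 CPM (median 343) in WT and 242 to 331 CPM (median 264) in Cic-L-KO (log2 fold change -0.31 with an SE of 0.10, adjusted p = 0.066).

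**Figure D3:**
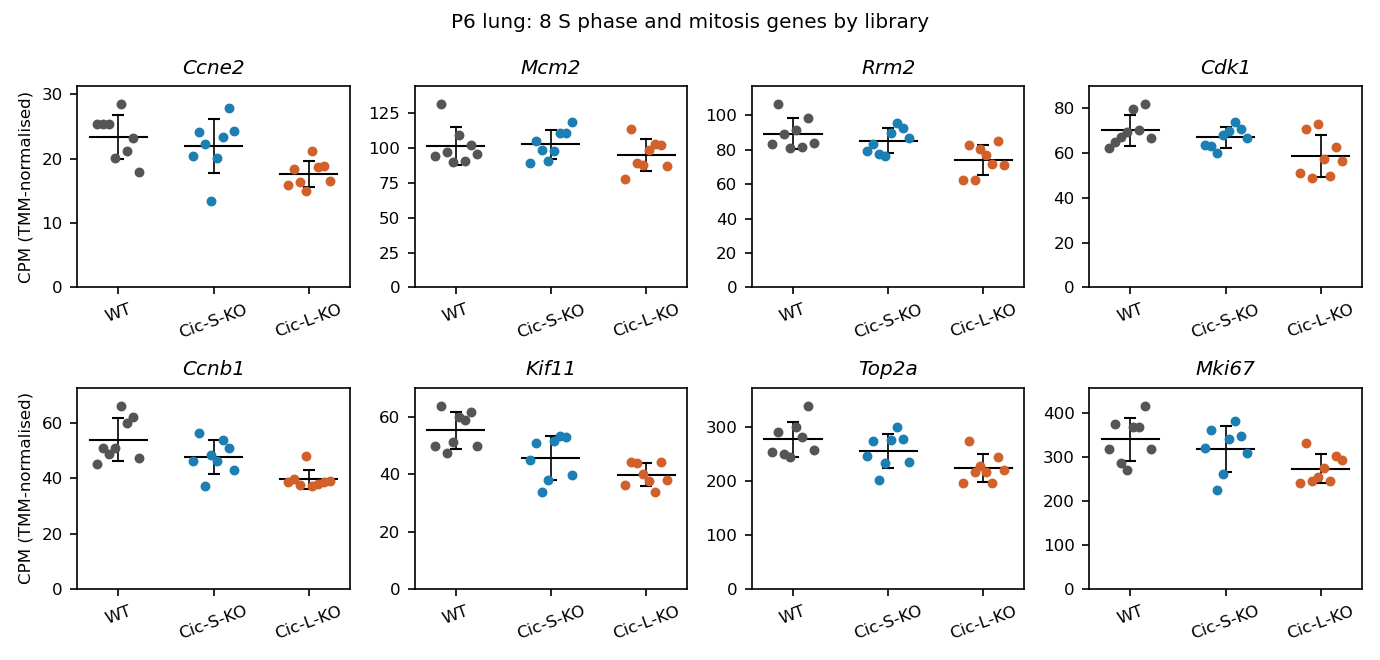
CPM of 8 genes in each P6 lung library by genotype (8 libraries a group); horizontal lines are means and bars are 1 SD. Kif11 and most Ccnb1 points of Cic-L-KO sit below the WT points, while Mcm2 points overlap throughout.

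Among the genes listed under S phase and its entry, with Foxm1 counted among them, 4 passed in Cic-L-KO lung. Foxm1, an activator of mitotic genes, ranged over 47.5 to 60.6 CPM (median 54.8) in WT and 34.2 to 50.8 CPM (median 39.9) in Cic-L-KO (log2 fold change -0.41 with an SE of 0.09, adjusted p = 0.0051; edgeR). Ccne2 ranged over 17.9 to 28.4 CPM (median 24.3) and 14.9 to 21.2 CPM (median 17.4) (log2 fold change -0.41 with an SE of 0.11, adjusted p = 0.026), and GC adjustment ended its call (adjusted p = 0.084), as did leaving out WT replicate 1 or 5 or Cic-L-KO replicate 3, 4 or 8. Rrm2, the regulated subunit of ribonucleotide reductase, ranged over 80.7 to 106 CPM (median 86.4) and 62.5 to 85.1 CPM (median 74.2) (log2 fold change -0.27 with an SE of 0.07, adjusted p = 0.020). Prim1, the catalytic primase subunit, ranged over 25.9 to 36.7 CPM (median 32.1) and 21.9 to 30.5 CPM (median 26.8) (log2 fold change -0.27 with an SE of 0.08, adjusted p = 0.033), and its adjusted p was 0.067 with GC content adjusted. The Prim1 call was also lost without WT replicate 2, 3, 5 or 7 or Cic-L-KO replicate 1, 3, 4 or 8. The groups of these 4 genes overlapped.

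The S phase genes Mcm2, Pcna and E2f1, given in every tissue, did not pass in lung. Mcm2, a subunit of the helicase, ranged over 89.8 to 131 CPM (median 96.4) in WT, 89.1 to 118 CPM (median 102) in Cic-S-KO and 77.9 to 114 CPM (median 93.7) in Cic-L-KO (log2 fold change -0.09 with an SE of 0.08, adjusted p = 0.53 for Cic-L-KO; edgeR). The 95% interval of that log2 fold change was -0.25 to 0.07. Pcna ranged over 179 to 231 CPM (median 206), 182 to 226.6 CPM (median 216) and 163 to 217 CPM (median 189.9) (log2 fold change -0.12 with an SE of 0.06, adjusted p = 0.22). E2f1 ranged over 34.2 to 44.9 CPM (median 37.6), 37.2 to 46.8 CPM (median 41.4) and 29.5 to 44.1 CPM (median 37.6) (log2 fold change -0.07 with an SE of 0.08, adjusted p = 0.64). The 3 genotypes overlapped for each of these genes.

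Of 42 other mitosis genes tested in Cic-L-KO lung, 34 were lower and 0 higher, with a median log2 fold change of -0.35. Over all genes tested there, 2.28% were lower and 2.62% higher. Examples are Ncapg, a condensin subunit (log2 fold change -0.59 with an SE of 0.11, adjusted p = 0.0011; edgeR), Prc1, which bundles microtubules of the central spindle (log2 fold change -0.40 with an SE of 0.07, adjusted p = 0.0013), and the kinase Pbk (log2 fold change -0.39 with an SE of 0.07, adjusted p = 6.2e-04). Of 33 other replication genes, 1 was lower, Pole2, a subunit of DNA polymerase epsilon (log2 fold change -0.33 with an SE of 0.09, adjusted p = 0.030), and all 33 log2 fold changes were negative with a median of -0.17. At an unadjusted p under 0.05 (edgeR), 16 of these 33 and 39 of the 42 mitosis genes were lower. DESeq2 called 5 and 35 of them. The difference between the lists was not tested. Of 20 regulators of cycle entry and exit, 4 were lower and 1 higher. The higher one was Cdkn1c, an inhibitor of cyclin-dependent kinases, at 39.5 to 44.3 CPM (median 42.2) in WT and 45.3 to 55.8 CPM (median 53.4) in Cic-L-KO lung (log2 fold change 0.32 with an SE of 0.06, adjusted p = 0.0023), with every Cic-L-KO library above every WT library. The share of all genes that separate upward in this comparison was not computed, so the separation of Cdkn1c cannot be set against a background. Marker lists also changed. In Cic-L-KO lung 3 of 5 alveolar type 1 genes were higher (summed level 3052 to 3575 CPM against 2660.4 to 3131 in WT), 2 of 8 macrophage genes (261 to 330.2 against 203 to 277 CPM) and 1 of 9 lymphocyte genes were higher, and 1 of 7 endothelial genes was higher (summed level 3009 to 4018 CPM against 3117 to 3723). Cartilage genes summed to 43.5 to 53.6 CPM against 4.74 to 8.68 in WT, with no overlap, and the 1 of them tested, Col2a1, was higher. No marker of these lists was at 0 in all libraries of a group. Their part in the lower mitotic genes was not tested.

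In Cic-S-KO lung 1 of the 34 genes changed. In Cic-S-KO against WT, Kif11 was lower and 0 genes were higher, where 5.73% of all genes tested were lower and 9.99% higher. Kif11 ranged over 33.7 to 53.3 CPM (median 48.1) in Cic-S-KO lung, overlapping the WT libraries (log2 fold change -0.28 with an SE of 0.09, adjusted p = 0.034; edgeR). This call was lost with no filter on low counts, with GC content or exon length adjusted, and with only the 2 genotypes in the fit, and without WT replicate 2, 5 or 6 or Cic-S-KO replicate 1, 3, 4 or 8 (adjusted p 0.0099 to 0.076 over all alternatives). The median log2 fold change of the 34 genes was -0.065. Mki67 ranged over 226 to 383 CPM (median 331), Top2a over 201 to 300.1 CPM (median 260.0) and Cdk1 over 60.0 to 74.0 CPM (median 67.4), each overlapping WT (log2 fold change -0.09, -0.12 and -0.07, adjusted p = 0.56, 0.32 and 0.58; edgeR). Of the other mitosis genes 1 of 42 was lower (Prc1, -0.23) and of the other replication genes 0 of 33 was called in either direction (0 at an unadjusted p under 0.05 and 0 by DESeq2).

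Markers of other cells changed in Cic-S-KO lung. Neutrophil genes were higher in 6 of 6 tested (summed level 84.5 to 311 CPM against 32.6 to 158 in WT, with medians of Elane and Mpo below 0.1 CPM in both), macrophage genes in 7 of 8 (317 to 528 against 203 to 277 CPM) and airway genes in 3 of 4. Endothelial genes were lower in 3 and higher in 1 of 7 (2689.6 to 3303 against 3117 to 3723 CPM). Lymphocyte genes were higher in 2 of 9 (42.5 to 63.6 against 23.9 to 45.3 CPM). Fibroblast genes were lower in 2 of 6 (5988 to 8909 against 6442 to 8725 CPM). Of 5 alveolar type 1 genes 1 was higher, as was the 1 cartilage gene tested (log2 fold change 1.52). Their part in the levels of the cycle genes was not tested. Without the library that held neuron genes the count of called genes stayed at 1.

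Set directly against each other, the 2 knockouts differed in lung. In Cic-S-KO against Cic-L-KO lung, 9 of 34 genes were higher and 0 lower, where 7.31% of all genes tested were higher and 4.85% lower. All 34 log2 fold changes were positive, with a median of 0.19. This comparison uses the same Cic-L-KO libraries as the one against WT, so the values are not independent of it. The count ranged from 5 (without Cic-S-KO replicate 6 or 7, or Cic-L-KO replicate 8) to 14 (without Cic-S-KO replicate 3), and was 7 without the library that held neuron genes. In the same comparison 4 of 8 macrophage genes (317 to 528 CPM summed in Cic-S-KO, 261 to 330.2 in Cic-L-KO) and 3 of 4 airway genes (3979.6 to 5905 and 2433 to 4267 CPM) were higher in Cic-S-KO. Lower in Cic-S-KO were 4 of 7 endothelial genes (2689.6 to 3303 and 3009 to 4018 CPM), 3 of 5 alveolar type 1 genes (2777 to 3139.6 and 3052 to 3575 CPM), 2 of 6 fibroblast genes and the 1 cartilage gene tested. Their part in the cycle genes was not tested.

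Those 9 genes came from 4 of the 5 roles. Ccne1 ranged over 11.1 to 15.7 CPM (median 13.0) in Cic-S-KO and 8.08 to 11.6 CPM (median 10.4) in Cic-L-KO lung (log2 fold change 0.38 with an SE of 0.10, adjusted p = 0.0081; edgeR). Cdt1, the licensing factor that loads the MCM helicase, ranged over 23.7 to 31.7 CPM (median 29.0) and 19.8 to 26.8 CPM (median 23.99) (log2 fold change 0.29 with an SE of 0.08, adjusted p = 0.019). Gins2, a subunit of the active helicase, ranged over 11.9 to 18.3 CPM (median 15.2) and 10.6 to 17.2 CPM (median 12.1) (log2 fold change 0.28 with an SE of 0.09, adjusted p = 0.048), and 5 of 8 other settings and 12 of 16 single libraries left out ended its call. Libraries of both genotypes overlapped for these 3 genes.

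Ccnb2 ranged over 46.5 to 59.7 CPM (median 53.2) in Cic-S-KO lung against the Cic-L-KO values above (log2 fold change 0.28 with an SE of 0.07, adjusted p = 0.0058; edgeR), and Ccnb1 over 37.1 to 56.2 CPM (median 47.2) (log2 fold change 0.27 with an SE of 0.08, adjusted p = 0.028). The Ccnb1 call was lost without Cic-S-KO replicate 2, 6 or 7 or Cic-L-KO replicate 3, 7 or 8. Aurka, the kinase of centrosome maturation, ranged over 31.7 to 39.1 CPM (median 34.4) in Cic-S-KO and 20.98 to 33.1 CPM (median 26.9) in Cic-L-KO (log2 fold change 0.39 with an SE of 0.12, adjusted p = 0.030), and lost its call with no filter on low counts and without Cic-S-KO replicate 6 or 7 or Cic-L-KO replicate 6, 7 or 8. Plk1, a kinase of mitotic entry and spindle assembly, ranged over 23.1 to 32.1 CPM (median 28.3) and 19.8 to 26.0 CPM (median 22.4) (log2 fold change 0.29 with an SE of 0.10, adjusted p = 0.049), and 5 of 8 other settings and 13 of 16 single libraries left out ended its call. Birc5, or survivin, of the chromosomal passenger complex, ranged over 34.4 to 47.7 CPM (median 37.7) and 25.2 to 35.5 CPM (median 30.5) (log2 fold change 0.35 with an SE of 0.09, adjusted p = 0.012). Kif23 ranged over 54.5 to 73.3 CPM (median 62.7) in Cic-S-KO (log2 fold change 0.22 with an SE of 0.06, adjusted p = 0.016). The 2 knockouts overlapped for each of these genes. Among the wider lists 23 of 42 other mitosis genes and 3 of 33 other replication genes were higher in Cic-S-KO lung, where 7.31% of all genes tested were higher.

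In the adult cerebellum, Cic-L-KO mice had lower levels of some S phase genes. In Cic-L-KO against WT cerebellum, 8 of the 31 genes that passed the filter on low counts were lower and 0 higher, where 10.6% of all genes tested were lower and 10.9% higher. Aurkb, Kif23 and Birc5 did not pass the filter there. The median log2 fold change was -0.23 against 0.0038 over all 16643 genes tested. The called genes were 2 of 8 licensing and helicase genes, 2 of 5 fork and nucleotide enzymes, 2 of 8 mitotic cyclins and kinases, 1 of 4 entry regulators and 1 of 6 spindle and chromosome genes.

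Mcm7 and Mcm5, subunits of the replicative helicase, were the 2 genes whose Cic-L-KO and WT cerebellum libraries did not overlap (1.65% of all genes). Mcm7 ranged over 21.5 to 24.8 CPM (median 23.9) in WT, 21.7 to 24.02 CPM (median 22.5) in Cic-S-KO and 17.3 to 21.2 CPM (median 19.3) in Cic-L-KO (log2 fold change -0.30 with an SE of 0.05, adjusted p = 5.0e-05; edgeR). Mcm5, whose promoter with E2F letters is shown above, ranged over 12.5 to 15.1 CPM (median 13.2), 9.08 to 13.2 CPM (median 10.5) and 7.96 to 11.97 CPM (median 10.8) (log2 fold change -0.37 with an SE of 0.08, adjusted p = 0.0023). Rrm1, the large subunit of ribonucleotide reductase, ranged over 39.7 to 47.0 CPM (median 45.4) in WT and 33.8 to 40.5 CPM (median 36.9) in Cic-L-KO (log2 fold change -0.27 with an SE of 0.05, adjusted p = 1.4e-04). Ccne2 ranged over 13.6 to 19.4 CPM (median 17.96) and 8.75 to 16.2 CPM (median 12.1) (log2 fold change -0.48 with an SE of 0.09, adjusted p = 5.7e-04). Prim1 ranged over 12.4 to 15.4 CPM (median 13.5) and 9.45 to 13.2 CPM (median 11.6) (log2 fold change -0.23 with an SE of 0.08, adjusted p = 0.033), and its call was lost with no filter on low counts, with GC content adjusted and without WT replicate 4, 5 or 8 or Cic-L-KO replicate 2, 4 or 8.

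Mitotic genes in the cerebellum rest on few counts. Mki67 had 5 to 39 counts in a WT library, 17 to 34 in Cic-S-KO and 7 to 13 in Cic-L-KO. It ranged over 0.182 to 1.33 CPM (median 0.704) in WT, 0.698 to 1.28 CPM (median 1.022) in Cic-S-KO and 0.243 to 0.501 CPM (median 0.423) in Cic-L-KO (log2 fold change -0.93 with an SE of 0.29, adjusted p = 0.022 for Cic-L-KO against WT; edgeR). Without WT replicate 4 or 6 its call was lost (adjusted p up to 0.070). WT libraries spread over the whole range of the Cic-L-KO libraries. Bub1b ranged over 2.197 to 4.04 CPM (median 2.93) in WT and 0.815 to 3.20 CPM (median 1.66) in Cic-L-KO (log2 fold change -0.72 with an SE of 0.21, adjusted p = 0.016). Ccna2 ranged over 0.506 to 1.42 CPM (median 0.895) and 0.385 to 0.773 CPM (median 0.520) (log2 fold change -0.78 with an SE of 0.21, adjusted p = 0.0098). Top2a did not pass against WT: it ranged over 0.193 to 1.29 CPM (median 0.616) in WT and 0.123 to 0.872 CPM (median 0.340) in Cic-L-KO (log2 fold change -0.68 with an SE of 0.36, adjusted p = 0.19).

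**Figure D4:**
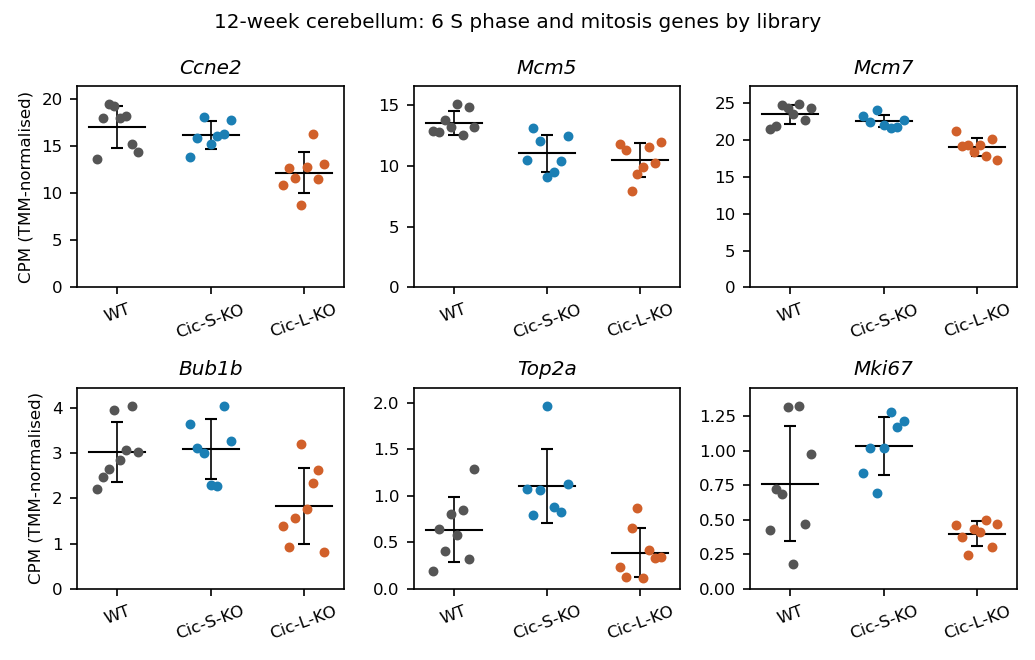
CPM of 6 genes in each 12-week cerebellum library by genotype (8 WT, 7 Cic-S-KO and 8 Cic-L-KO); horizontal lines are means and bars are 1 SD. Mcm7 and Mki67 points of Cic-L-KO lie below all Cic-S-KO points, and no Top2a or Mki67 level is above 1.97 CPM.

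The direct comparison of the knockouts in cerebellum gave 6 of 31 genes higher in Cic-S-KO and 0 lower, where 6.06% of all genes tested were higher and 6.38% lower. Mcm7 (log2 fold change 0.24 with an SE of 0.05, adjusted p = 0.0012; edgeR) and Mki67 (log2 fold change 1.37 with an SE of 0.29, adjusted p = 0.0022) did not overlap between the knockouts, against 1.14% of all genes. Top2a ranged over 0.800 to 1.97 CPM (median 1.07) in Cic-S-KO (log2 fold change 1.48 with an SE of 0.36, adjusted p = 0.0062). Ccne2 ranged over 13.8 to 18.1 CPM (median 16.1) (log2 fold change 0.41 with an SE of 0.10, adjusted p = 0.0052) and Bub1b over 2.26 to 4.05 CPM (median 3.11) (log2 fold change 0.75 with an SE of 0.22, adjusted p = 0.024). The Bub1b call was lost with no filter and with only the 2 genotypes in the fit. E2f1 ranged over 3.10 to 5.19 CPM (median 4.22) in Cic-S-KO and 2.29 to 4.14 CPM (median 2.99) in Cic-L-KO (log2 fold change 0.42 with an SE of 0.14, adjusted p = 0.047). The E2f1 call was lost with no filter, with only the 2 genotypes in the fit, and without any 1 of 12 of the 15 libraries.

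Against WT, Cic-S-KO cerebellum had 1 gene higher and 1 lower of 31 (4.34% and 3.89% of all genes tested). Ccne1 rose from 8.66 to 11.9 CPM (median 11.1) in WT to 11.7 to 14.7 CPM (median 13.4) in Cic-S-KO (log2 fold change 0.32 with an SE of 0.07, adjusted p = 0.0068; edgeR). Mcm5 fell (log2 fold change -0.30 with an SE of 0.09, adjusted p = 0.033), with overlapping groups, and lost its call without WT replicate 3, 5 or 7 or Cic-S-KO replicate 1, 4, 5 or 6. Cdk1, Mcm2 and Pcna passed in no cerebellum comparison. Pcna ranged over 53.6 to 66.6 CPM (median 62.9) in WT, 60.5 to 67.1 CPM (median 64.7) in Cic-S-KO and 56.0 to 63.9 CPM (median 61.7) in Cic-L-KO, and its log2 fold change in Cic-L-KO had a 95% interval of -0.12 to 0.05. Mcm2 ranged over 10.6 to 14.7 CPM (median 13.7), 12.01 to 14.98 CPM (median 13.9) and 10.8 to 13.1 CPM (median 11.8) (log2 fold change -0.17 with an SE of 0.07, adjusted p = 0.075 for Cic-L-KO). Cdk1 stayed at 3 to 17 counts in WT and 4 to 15 in Cic-L-KO libraries (log2 fold change -0.08 with an SE of 0.36, adjusted p = 0.90).

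Around these genes in the Cic-L-KO cerebellum, 4 of 33 other replication genes were lower, such as Pole, the catalytic subunit of DNA polymerase epsilon (log2 fold change -0.74 with an SE of 0.16, adjusted p = 0.0016; edgeR), and 3 of 30 other mitosis genes, such as Cdc20, an activator of the anaphase-promoting complex (-0.54). Over all genes tested there, 10.6% were lower and 10.9% higher, so both counts lie near the background share. Of 18 regulators 3 were lower and 2 higher. Cdkn2c, the p18 inhibitor of CDK4 and CDK6, ranged over 3.35 to 5.56 CPM (median 4.43) in WT, 2.72 to 4.25 CPM (median 3.29) in Cic-S-KO and 8.97 to 11.7 CPM (median 10.2) in Cic-L-KO (log2 fold change 1.22 with an SE of 0.10, adjusted p = 1.3e-09), with every Cic-L-KO library above every WT library. Here too the share of all genes that separate upward was not computed. In Cic-S-KO cerebellum Cdkn2c was lower (log2 fold change -0.34 with an SE of 0.10, adjusted p = 0.039), and in Cic-L-KO it was lower in lung (log2 fold change -0.24 with an SE of 0.06, adjusted p = 0.019) and higher in cortex (log2 fold change 0.67 with an SE of 0.11, adjusted p = 1.0e-05). Beside this, 4 of 5 neuron genes were lower and 1 higher in Cic-L-KO cerebellum (summed level 4168 to 4729.7 CPM against 4580.5 to 5287 in WT) and 4 of 7 endothelial genes were higher (344 to 441 against 344 to 394 CPM), with no gene of either list at 0 in all libraries of a group. Of 4 astrocyte genes 2 were lower (2005 to 2453 against 2126 to 2721 CPM), and 3 of 7 macrophage and microglia genes were higher (95.9 to 117 against 79.4 to 111 CPM). Of 5 genes of oligodendrocyte precursors 1 was higher and 1 lower (221 to 316 against 205 to 311 CPM), 1 of 4 granule and Purkinje cell genes was lower, and 3 of 4 fibroblast genes were higher. Between the knockouts 3 of 4 astrocyte genes were higher in Cic-S-KO, and 4 of 7 endothelial genes were lower and 1 higher. Against WT, 4 of 5 neuron genes were lower and 1 higher in Cic-S-KO cerebellum, and 2 of 4 astrocyte genes were higher. Their part in the cycle genes was not tested.

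In Cic-L-KO against WT cortex, 5 of the 32 genes that passed the filter were lower and 1 higher, where 21.9% and 21.4% of all genes tested were. The share was thus below the background in both directions. Cdk1 and Bub1 did not pass the filter. Pcna, Rrm1 and Rrm2, among the lower genes, supply nucleotides or serve the fork. Pcna ranged over 45.5 to 53.1 CPM (median 49.0) in WT, 41.2 to 51.7 CPM (median 45.3) in Cic-S-KO and 37.6 to 43.4 CPM (median 42.0) in Cic-L-KO, with no overlap of Cic-L-KO and WT (log2 fold change -0.26 with an SE of 0.04, adjusted p = 1.5e-05; edgeR), as for 7.25% of all genes. Rrm2 ranged over 1.48 to 2.92 CPM (median 2.14) in WT and 1.13 to 1.84 CPM (median 1.504) in Cic-L-KO (log2 fold change -0.55 with an SE of 0.16, adjusted p = 0.0050). Rrm1 ranged over 18.1 to 21.3 CPM (median 20.2) and 16.8 to 19.4 CPM (median 18.01) (log2 fold change -0.15 with an SE of 0.06, adjusted p = 0.046), and its call was lost without any 1 of 12 of the 16 libraries, with no filter and with GC content adjusted.

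The other lower genes were regulators of S phase entry. Ccne2 ranged over 5.81 to 8.67 CPM (median 7.91) in WT, 6.36 to 9.51 CPM (median 7.76) in Cic-S-KO and 4.07 to 6.15 CPM (median 4.85) in Cic-L-KO cortex (log2 fold change -0.63 with an SE of 0.10, adjusted p = 6.5e-06; edgeR). E2f1 ranged over 16.4 to 20.8 CPM (median 18.5), 16.2 to 22.3 CPM (median 20.3) and 14.7 to 18.3 CPM (median 16.3) (log2 fold change -0.20 with an SE of 0.07, adjusted p = 0.014). Ccna2 was higher, at 0.692 to 1.53 CPM (median 0.907) in WT and 1.09 to 1.76 CPM (median 1.44) in Cic-L-KO, or 18 to 35 and 26 to 43 counts (log2 fold change 0.49 with an SE of 0.18, adjusted p = 0.024), and with no filter or without WT replicate 4 it lost the call. Mki67, Top2a and Mcm2 did not pass. Mki67 ranged over 2.13 to 4.53 CPM (median 2.69) in WT and 2.53 to 5.19 CPM (median 3.68) in Cic-L-KO (log2 fold change 0.33 with an SE of 0.17, adjusted p = 0.12). Top2a ranged over 1.57 to 3.27 CPM (median 2.13) and 1.28 to 2.66 CPM (median 2.22) (log2 fold change -0.17 with an SE of 0.25, adjusted p = 0.61). Mcm2 ranged over 4.86 to 7.18 CPM (median 6.02) and 4.82 to 9.30 CPM (median 5.41) (log2 fold change 0.05 with an SE of 0.12, adjusted p = 0.79).

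Of the wider lists in Cic-L-KO cortex, 3 of 36 other mitosis genes were higher and 6 lower, as were 5 and 5 of 33 other replication genes and 6 and 5 of 19 regulators. Over all genes tested there, 21.4% were higher and 21.9% lower. Examples are Incenp, a scaffold of the chromosomal passenger complex (log2 fold change -0.92 with an SE of 0.07, adjusted p = 2.5e-12; edgeR), Cdc7, the kinase that fires origins (log2 fold change 0.54 with an SE of 0.10, adjusted p = 4.2e-05), and Wee1, an inhibitory kinase of Cdk1 (log2 fold change -0.55 with an SE of 0.06, adjusted p = 3.5e-08). Beside these, 4 of 5 neuron genes were lower (4940.4 to 5755 against 6856 to 7537 CPM summed), and 4 of 7 macrophage and microglia genes (279 to 323 against 238 to 322 CPM) and 4 of 7 endothelial genes (180.2 to 222 against 147 to 179 CPM) were higher. Of 5 genes of oligodendrocyte precursors 2 were lower (253 to 317 against 270.4 to 345 CPM), and 2 of 4 cartilage genes were higher (18.4 to 21.3 against 6.76 to 8.66 CPM). Between the knockouts 4 of 5 neuron genes were higher in Cic-S-KO cortex, 3 of 7 macrophage and microglia genes were lower, and 4 of 7 endothelial genes were lower and 1 higher. Their part in the cycle genes was not tested.

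Between the knockouts, 4 of 32 genes were higher in Cic-S-KO cortex and 0 lower, where 17.4% of all genes tested were higher and 16.5% lower. Ccne2 was the 1 gene with no overlap (log2 fold change 0.66 with an SE of 0.10, adjusted p = 6.4e-06; edgeR), as for 5.36% of all genes. E2f1 (log2 fold change 0.31 with an SE of 0.07, adjusted p = 6.5e-04) and Pcna (log2 fold change 0.15 with an SE of 0.05, adjusted p = 0.0088) were also higher. Aurkb, the kinase of the chromosomal passenger complex, ranged over 0.222 to 0.718 CPM (median 0.445) in Cic-S-KO and 0.143 to 0.385 CPM (median 0.258) in Cic-L-KO, or 5 to 16 and 4 to 12 counts (log2 fold change 0.79 with an SE of 0.31, adjusted p = 0.044). It lost the call in 11 of 14 fits that each left out 1 library, with no filter and with DESeq2. Against WT, Cic-S-KO cortex had 0 of 32 genes called, where 2.83% of all genes were higher and 3.7% lower. At an unadjusted p under 0.05 there were 5 (edgeR), and DESeq2 called 0 of the 26 genes it gave an adjusted p. Without WT replicate 7 or without Cic-S-KO replicate 1, 1 gene was called.

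Across tissues, 22 of 34 genes were lower in Cic-L-KO against WT in at least 1 tissue, as were 25.0% of all genes tested in at least 1. Of the 29 genes tested in all 3 tissues, Ccne2 was the 1 lower in each (0.266% of all genes tested in all 3), with mean levels falling from 23.3 ± 3.44 CPM (SD, n = 8) to 17.6 ± 2.04 CPM (SD, n = 8) in lung, from 7.67 ± 0.957 CPM (SD, n = 8) to 4.96 ± 0.755 CPM (SD, n = 8) in cortex and from 17.0 ± 2.25 CPM (SD, n = 8) to 12.2 ± 2.13 CPM (SD, n = 8) in cerebellum. Its log2 fold changes were -0.41, -0.63 and -0.48. The gene overlaps Ints8 on the opposite strand, and the sources do not say whether strand was used in counting. Ints8 had log2 fold changes of -0.24, -0.01 and -0.20 in those comparisons, of which that in cerebellum passed (adjusted p = 0.039; edgeR). Ccne2, Ccna2, Prim1, Rrm1 and Rrm2, 5 of 34, were lower in 2 or more tissues, as were 5.83% of all genes tested in at least 2. Ccna2 was lower in lung and cerebellum and higher in cortex. It overlaps Exosc9 on the opposite strand, whose log2 fold changes in Cic-L-KO were 0.05 in lung, -0.14 in cerebellum and -0.21 in cortex. Of these, that in cortex passed (adjusted p = 0.0066; edgeR). In all, 10 of the 34 genes overlap a gene on the opposite strand. Mcm7 overlaps Cops6 and Ap4m1, whose log2 fold changes in Cic-L-KO cerebellum were 0.01 and -0.10 and did not pass.

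**Figure D5:**
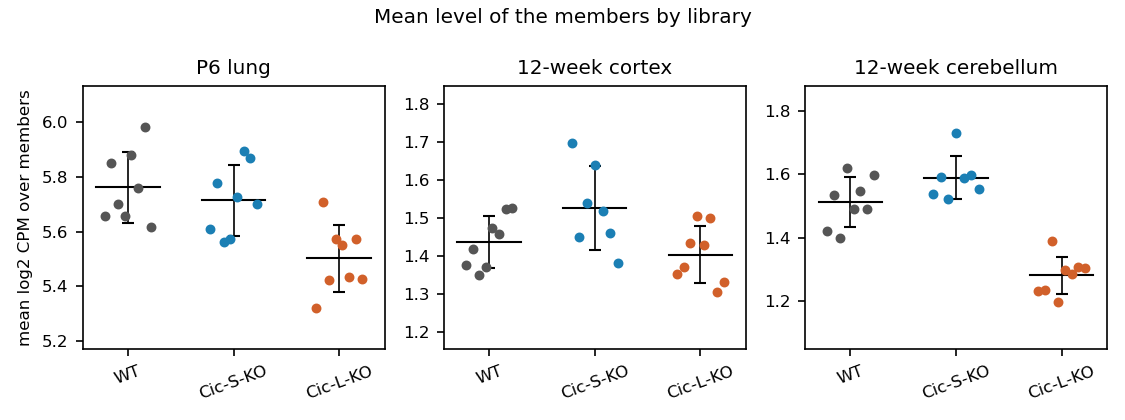
Mean log2 CPM (prior count 2) over the genes that passed the filter, for each library, by tissue and genotype; lines are means, bars are 1 SD, and axes do not start at 0. Cic-L-KO cerebellum libraries (up to 1.390) lie just below the WT libraries (from 1.397), while medians over the genes overlap (up to 1.28 in Cic-L-KO and from 1.015 in WT), and Cic-L-KO lung libraries overlap the lower WT libraries.

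As a description with no test, the mean log2 CPM over the genes was 5.76 ± 0.130 (SD, n = 8) in WT lung, 5.71 ± 0.128 in Cic-S-KO lung and 5.50 ± 0.123 in Cic-L-KO lung. In cerebellum it was 1.51 ± 0.0783 (n = 8), 1.59 ± 0.0683 (n = 7) and 1.28 ± 0.0597 (n = 8). Cortex gave 1.44 ± 0.0687, 1.53 ± 0.110 and 1.40 ± 0.0752, with all 3 genotypes overlapping. The cerebellum values weight genes with few counts as much as abundant ones.

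Whether the change in lung differed from that in brain was tested directly, as the log2 fold change against WT in lung minus the mean of those in cortex and cerebellum. The 34 genes entered this fit, but 29 of them passed the filter in each tissue: Cdk1 and Bub1 failed it in cortex, and Aurkb, Kif23 and Birc5 in cerebellum, and these 5 entered through lung, where they are high. For Cic-L-KO, 2 of 34 genes were lower and 0 higher (6.05% and 6.24% of the 19821 genes tested), Nusap1 (difference -0.38) and Ccne1 (difference -0.30). For Cic-S-KO, 2 of 34 were lower and 0 higher (3.64% and 5.52%), Aurkb (difference -0.78) and Kif11 (difference -0.55). Aurkb had 2 to 5 counts in WT and 2 to 9 in Cic-S-KO cerebellum libraries, and 2 to 12 and 5 to 16 in cortex, so its brain side rests on few counts. The median difference was -0.067 for Cic-L-KO and -0.12 for Cic-S-KO. For 32 of 34 genes in each knockout the test did not show that the change in lung differed from that in brain. In simulated data for Cic-L-KO, this contrast called 78 of 100 genes at a log2 difference of 1 and 17 of 100 at 0.3. Small differences can therefore be missed. Tissue and age cannot be told apart in this contrast.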

How the data were processed

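The deposited file is 1 table of raw gene counts, whole numbers with no scaling, for 70 libraries. Per the submitters' processing notes, STAR 2.7 and GRCm38.p6 were used. The counting program, annotation release and strand setting are not given in the sources used here. Row IDs were matched, ignoring version, to GENCODE M21 (GRCm38): 50725 of 50789 matched. Counts were fitted per tissue with edgeR 4.0.16 in R 4.3.3 (filterByExpr, TMM, robust quasi-likelihood, 3 genotypes), and over all 9 groups for lung minus brain. P-values were adjusted by Benjamini-Hochberg over all genes tested, with 0.05 as threshold. SE is the log2 fold change divided by the square root of F. Alternatives were DESeq2 1.42.0, RLE scaling, no filter, a non-robust fit, 2 genotypes only and a replicate block, and, chosen after seeing the data, GC or exon length adjustment in 20 bins and leaving out each library. Full values are given for Mki67, Top2a, Cdk1, Mcm2, Pcna and E2f1 and for called genes, at most 4 a role by smallest p. Other lists name at most 3 genes by smallest p. Values of Cdkn2c outside the Cic-L-KO cerebellum were added after they were seen. The genes and lists were chosen with earlier results of these data known. Simulated data with 200 changed genes on the Cic-L-KO lung comparison (16695 genes) gave calls for 93 of 100 genes at a log2 change of 1 and 29 of 100 at 0.3, and 3.17% of calls were unchanged genes. Labels do not link samples to litters, so p-values measure the spread between these samples. Precision is set by counts, which are low for mitotic genes in brain.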

Additional observations from a re-analysis of the deposited data

Results flagged for a closer look

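Single libraries lay far from the rest of their group in 8 of 153 groups of values checked by Dixon's test, where chance gives about 7.65. In WT lung these were Mcm2 in replicate 2 (131 CPM, the others 89.8 to 109), Bub1 in replicate 7 (45.5 CPM, the others 30.7 to 37.4) and Birc5 in replicate 7 (51.5 CPM, the others 30.0 to 38.4). In Cic-L-KO lung they were Ccnb1 in replicate 4 (48.0 CPM, the others 37.02 to 39.51) and Gins2 in replicate 2 (17.2 CPM, the others 10.6 to 13.2). Cdk1 stood at 0.845 CPM in WT cortex replicate 2, with the others at 0.161 to 0.384. Cic-S-KO cerebellum replicate 4 was high for Top2a (1.97 CPM, the others 0.800 to 1.13) and for the mean log2 CPM over the genes (1.73, the others 1.52 to 1.60).

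The change against WT differed between lung and brain by its own test for Aurkb (difference -0.78, adjusted p under the alternatives 0.0076 to 0.048) and Kif11 (-0.55) in Cic-S-KO, and for Nusap1 (-0.38) and Ccne1 (-0.30) in Cic-L-KO, from edgeR's quasi-likelihood test. Kif11 and Ccne1 lost the call with no filter on low counts. Aurkb did not pass the filter in cerebellum (2 to 9 counts in a Cic-S-KO library) and entered this fit through lung, so its difference rests on few brain counts.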

How the results depend on the processing

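No called gene of the 37 changed direction under the alternatives run. In Cic-S-KO lung the 1 called gene became 0 with no filter on low counts, with exon length adjusted and with only the 2 genotypes, and 2 with DESeq2; leaving out a library gave 0 to 2. In Cic-L-KO lung 15 became 9 with GC content adjusted and 20 with DESeq2, and leaving out a library gave 10 to 19. Between the knockouts in lung 9 became 5 to 14 without single libraries. Cic-S-KO cortex gave 0 to 1 and Cic-S-KO cerebellum 1 to 3 without single libraries. DESeq2 called 10 instead of 6 genes between the knockouts in cerebellum. With no filter each lung minus brain count of 2 became 1. The mean log2 CPM difference in cerebellum went from -0.23 to -0.15 (Cic-L-KO against WT) and from 0.31 to 0.22 (between knockouts), and in cortex Cic-L-KO from -0.03 to -0.17, with the median over genes. The replicate block, for numbers that the labels do not tie to litters and that did not pair all same-numbered samples (correlations of their deviations from -0.05 to 0.35 in lung, over 0.1 in 5 or 6 of 8 pairs of each comparison, with 2 to 6 of 8 samples closest to their own number, and from -0.39 to 0.30 in brain), gave 2 genes for Cic-S-KO lung, 21 for Cic-L-KO lung, 19 between the knockouts in lung and 1 for Cic-S-KO cerebellum, where Mcm5 lost its call, as did E2f1 between the knockouts in cerebellum. In lung the mean correlation was 0.14 to 0.16 for samples of the same number and -0.02 for other pairs, so same-numbered lung samples were more alike on average. In cortex and cerebellum the Cic-S-KO library names skip a number, so later replicate numbers there differ from the library numbers. WT and Cic-L-KO keep the same number in both. The brain correlations with Cic-S-KO and the lost Mcm5 and E2f1 calls rest on replicate numbers. They cannot show what matching by library number would give, which was not tested. Where no construction shows it, the cause of a changed result was not tested. Depth limits the mitotic genes in brain, many below 1 CPM.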
